A study of Mus musculus with 6 samples.

Results

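RNA from whole liver was sequenced in mice that lack NEK7 in hepatocytes and in wild-type mice, and the 46 genes described here encode the machinery of cell division: the kinase CDK1 with its cyclins, the spindle checkpoint, the kinetochore, the spindle motors and the proteins that cut the cell apart at cytokinesis. They were chosen by name, all 46 were found among the 17975 genes of the expression table, and 43 of them had enough counts to be tested. The Hom group held 3 mice labelled NEK7 hepatocyte knock-out, which the study's methods give as NEK7 fl/fl, Alb-Cre+: homozygous for a floxed allele, with Cre driven by the albumin promoter, which is active in hepatocytes and not in the endothelial, stellate or immune cells of the liver. The control group held 3 mice labelled WT, and the sources used here do not say whether these carried a floxed allele or Cre. The floxed and Cre lines were on a C57BL/6 background. No treatment was given for the sequenced mice. The study used mice of both sexes for its knock-out work, at ages from weeks to months, and states that genotypes were matched for sex and age. The age and sex of each sequenced mouse were not given in the sources used here. Each library came from the liver of 1 mouse.

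Entry into mitosis is driven by CDK1 bound to cyclin A or B. The genes of this machinery are transcribed together in G2 and mitosis, through a promoter element called the cell cycle genes homology region (CHR), where the MuvB complex joins MYBL2 and FOXM1 to activate them in dividing cells and the DREAM complex represses them in resting cells, and through CCAAT boxes, which bind NF-Y. In adult liver, hepatocytes are mostly quiescent and often polyploid, and they re-enter the cycle after injury. NEK7 itself is a mitotic kinase: it is activated downstream of NEK9, together with NEK6, and takes part in spindle assembly and cytokinesis. The comparison of Hom with WT livers asks here how the transcripts of this machinery stand in a liver whose hepatocytes lack that kinase.

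The promoters are shown first because they are a property of these genes that their choice by function did not use. RefSeq windows of 300 bases (GRCm38.p6, 250 bases before and 50 after the transcription start) were available for 39 of the 46 genes, in 42 windows. Ccna2, Foxm1, Spc24, Aurkb, Incenp, Tpx2 and Kif20a had no entry. The letters TTTGAA or TTTAAA, the forms of the CHR searched on both strands, were present in 37 of 42 windows, or 88.1%, against 20.1% of 14030 windows of all genes tested and 27.6% of all 32851 windows of the table. CCAAT, also searched on both strands, was present in 73.8% of the windows, against 37.5% for all genes tested and 37.4% for the whole table. Both motifs stood together in 71.4%, against 7.88% of the windows of genes tested and 10.7% of the table. A CHR and a CCAAT match can share at most 1 base. Within 50 bases on either side of the start, a distance chosen after the matches were seen, a CHR match was found in 33 of 42 windows (78.6%), against 5.23% of the windows of genes tested. A match is a string of letters and not a bound site. Windows of members that were called higher in Hom livers held a CHR match in 87.1% of 31 cases, and those of tested members that were not called higher in 87.5% of 8.

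The cyclin B genes, Cdk1, Plk1 and Cdc20 are shown because the results turn on them. Pttg1 is shown beside them because it was the only member called lower in Hom livers, and it was added after its values were seen. Capitals mark the CHR and CCAAT matches on either strand, so that a CCAAT on the other strand appears as ATTGG. All run 5′ to 3′ along the transcribed strand, at chr13:100786437-100786736 (minus) for Ccnb1, chr9:70421505-70421804 (minus) for Ccnb2, chr10:69352863-69353162 (minus) for Cdk1, chr7:122159185-122159484 (plus) for Plk1, chr4:118437294-118437593 (minus) for Cdc20 and chr11:43425932-43426231 (minus) for Pttg1.
Ccnb1: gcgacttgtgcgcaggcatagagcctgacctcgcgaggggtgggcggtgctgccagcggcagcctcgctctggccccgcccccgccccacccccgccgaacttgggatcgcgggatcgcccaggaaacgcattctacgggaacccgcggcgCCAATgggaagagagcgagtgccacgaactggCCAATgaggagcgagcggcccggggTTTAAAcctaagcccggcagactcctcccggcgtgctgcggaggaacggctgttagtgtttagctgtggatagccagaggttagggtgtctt
Ccnb2: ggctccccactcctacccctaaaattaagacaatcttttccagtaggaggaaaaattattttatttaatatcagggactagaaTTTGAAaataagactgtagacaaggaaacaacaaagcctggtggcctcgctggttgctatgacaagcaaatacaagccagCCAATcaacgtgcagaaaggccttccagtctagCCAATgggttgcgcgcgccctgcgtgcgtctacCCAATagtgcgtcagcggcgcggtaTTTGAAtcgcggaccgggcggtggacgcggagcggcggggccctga
Cdk1: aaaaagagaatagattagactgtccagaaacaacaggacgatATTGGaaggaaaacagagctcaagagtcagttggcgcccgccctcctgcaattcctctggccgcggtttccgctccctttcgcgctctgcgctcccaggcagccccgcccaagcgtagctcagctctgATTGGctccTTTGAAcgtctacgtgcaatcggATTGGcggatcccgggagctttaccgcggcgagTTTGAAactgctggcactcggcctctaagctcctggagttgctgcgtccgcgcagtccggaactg
Plk1: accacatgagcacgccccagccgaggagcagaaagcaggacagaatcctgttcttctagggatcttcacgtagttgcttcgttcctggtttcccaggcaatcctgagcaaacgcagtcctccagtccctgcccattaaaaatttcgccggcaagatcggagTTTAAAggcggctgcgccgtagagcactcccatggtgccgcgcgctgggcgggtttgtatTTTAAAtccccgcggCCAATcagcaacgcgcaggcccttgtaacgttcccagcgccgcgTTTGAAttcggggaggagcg
Cdc20: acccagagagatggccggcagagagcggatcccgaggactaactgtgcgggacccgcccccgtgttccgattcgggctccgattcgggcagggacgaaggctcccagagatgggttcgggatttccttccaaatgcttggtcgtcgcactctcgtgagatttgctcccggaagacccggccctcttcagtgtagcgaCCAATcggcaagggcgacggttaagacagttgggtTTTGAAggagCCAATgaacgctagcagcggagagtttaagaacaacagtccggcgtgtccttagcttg
Pttg1: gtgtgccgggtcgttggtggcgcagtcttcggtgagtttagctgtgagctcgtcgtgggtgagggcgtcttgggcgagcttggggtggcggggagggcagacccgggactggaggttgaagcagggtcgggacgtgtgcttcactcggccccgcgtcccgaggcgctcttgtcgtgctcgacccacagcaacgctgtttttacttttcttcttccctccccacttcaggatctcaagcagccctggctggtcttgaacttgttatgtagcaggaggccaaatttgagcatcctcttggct

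Counted from the start (the first base transcribed is 1, and a match is placed by its leftmost base), Ccnb1 had CCAAT at −99 and −67 and a CHR match at −42. Cdk1 had a CHR match at −15, Cdc20 at −18 and Ccnb2 at 5, each with at least 1 CCAAT upstream of it. The Pttg1 window held neither string, which says only that these letters are not in this window. Bub1, Mad2l1, Nuf2 and Nusap1 also lacked a CHR match, and these 4 genes were called higher in Hom livers (described by role further on).

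**Figure D1:**
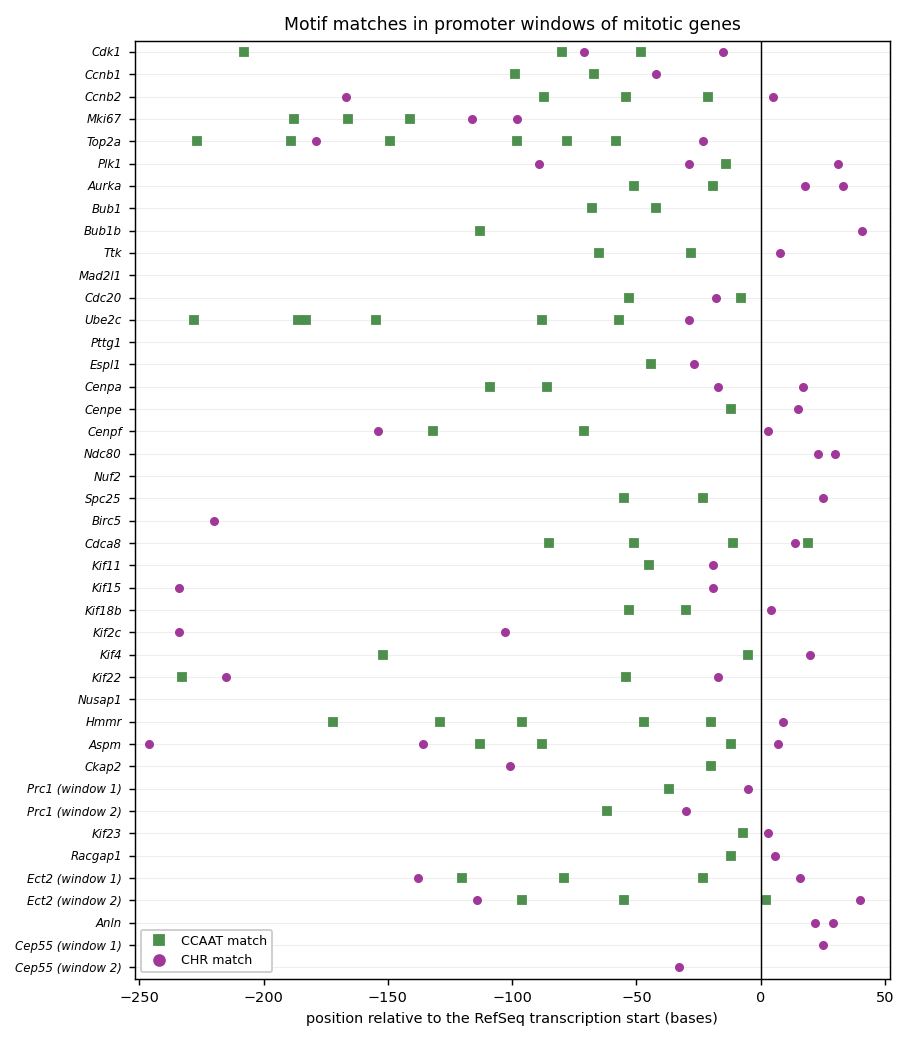
Each row is a promoter window of a mitotic gene, and the horizontal axis gives the position in bases relative to the RefSeq transcription start, from 250 bases before to 50 after it. Circles mark CHR matches and squares CCAAT matches on either strand. The CHR matches gather around the start (33 of 42 windows have a match within 50 bases of it), and CCAAT matches lie mostly before it.

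The targeted gene was lower in each Hom liver. Nek7 stood at 62.9, 69.1 and 63.7 normalised CPM (counts scaled to a common library size with edgeR's TMM factors) in WT livers 1, 2 and 3 and at 14.5, 18.1 and 16.7 in Hom livers 1, 2 and 3. The libraries held 19349418 to 19730236 estimated counts. Hom liver 1 stood apart in its Y-linked genes, with 0 counts of Ddx3y and Kdm5d against at least 243 in every other liver. It had 4 counts of Eif2s3y against at least 582, and 149 of Uty against at least 464. This is the pattern of a female liver among males, although no label gives the sex. Sex cannot be told apart from other differences of Hom liver 1, so the counts below are also given without it. In the TMM-scaled fit the median log2 fold change over all 13805 genes tested was −0.0018. With library size alone it was 0.45, so every log2 fold change below is relative to the TMM scale.

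Mitotic transcripts were scarce in WT livers and more abundant in Hom livers. The summed level of the 46 genes was 97.6, 69.8 and 91.7 normalised CPM in WT livers 1, 2 and 3 and 113.9, 214.2 and 181.8 in Hom livers 1, 2 and 3. Every Hom liver was above every WT liver. A single gene, Pttg1, made up 34.2% of the WT sum and 10.9% of the Hom sum. The ratio of the group means of the sum was 1.97. Without Pttg1 and Spc24, the members with the highest level per gene length and neither of them called higher, the sum was 47.2 ± 14.0 in WT and 143.3 ± 47.9 in Hom livers (SD, n = 3 mice each), a ratio of 3.04. The median member had a mean of 14.3 counts in WT livers and 74.7 in Hom livers, and 42 of 46 members had a WT mean under 50 counts. In bulk tissue, more cells in mitosis and more mitotic RNA per cell cannot be told apart.

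In the test of Hom against WT livers, 34 of the 46 members were higher, 1 was lower, 8 did not pass and 3 (Ttk, Ndc80 and Kif15) had too few counts to be tested (edgeR's quasi-likelihood test, Benjamini-Hochberg adjusted p under 0.05). Of all 13805 genes tested, 21.5% were higher and 20.1% lower. The log2 fold changes of the 43 tested members ran from −0.68 to 2.82 with a median of 1.92. Of these 43, 28 had under 10 counts in at least 1 WT liver, so they passed the filter on low counts with the help of the Hom livers. Without that filter all 46 members could be tested, and 35 were higher (median log2 fold change 1.89), against 16.1% of 17922 genes. With at least 10 counts demanded in every liver, 15 members remained, of which 9 were higher (median 1.11), against 20.9% of 12223 genes. In 37 of the 46 members all 3 Hom livers lay above all 3 WT livers, which was so for 28.7% of all genes tested. In 8 members the groups overlapped, and in Pttg1 the Hom livers lay below.

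The number of members called higher changed with single livers. It was 14 without Hom liver 2 and 20 without Hom liver 3, when 14.4% and 14.2% of all genes were higher, each out of 43 tested. Without Hom liver 1 it was 39 of 46, against 19.2% of all genes. Without WT livers 1, 2 and 3 it was 34, 23 and 28 of 46, against 21.5%, 14.5% and 17.2% of all genes. The 14 members called higher whichever liver was left out were Cdk1, Ccnb1, Foxm1, Plk1, Cenpe, Cenpf, Incenp, Kif18b, Kif2c, Tpx2, Kif20a, Racgap1, Ect2 and Cep55. The other 20 lost their call without Hom liver 2. Without WT liver 2 the call was lost in Ccnb2, Bub1b, Cdc20, Espl1, Nuf2, Birc5, Kif22, Nusap1, Hmmr, Aspm and Prc1. Without Hom liver 3 it was lost in all of these but Ccnb2, and also in Mki67, Top2a, Bub1 and Ube2c. Without WT liver 1 it was lost in Cdc20, Birc5, Kif22, Hmmr and Prc1, and without WT liver 3 in Top2a, Bub1b, Ube2c, Espl1, Kif22, Nusap1, Aspm and Prc1. Espl1 alone was lost without Hom liver 1. Calls were also gained: Cdca8, Kif4, Kif11, Kif15, Ttk and Ndc80 were higher without Hom liver 1, Cenpa, Cdca8, Kif4, Kif23 and Ndc80 without WT liver 1, and Ttk and Ndc80 without WT liver 3. The median log2 fold change moved less, between 1.61 and 2.13.

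**Figure D2:**
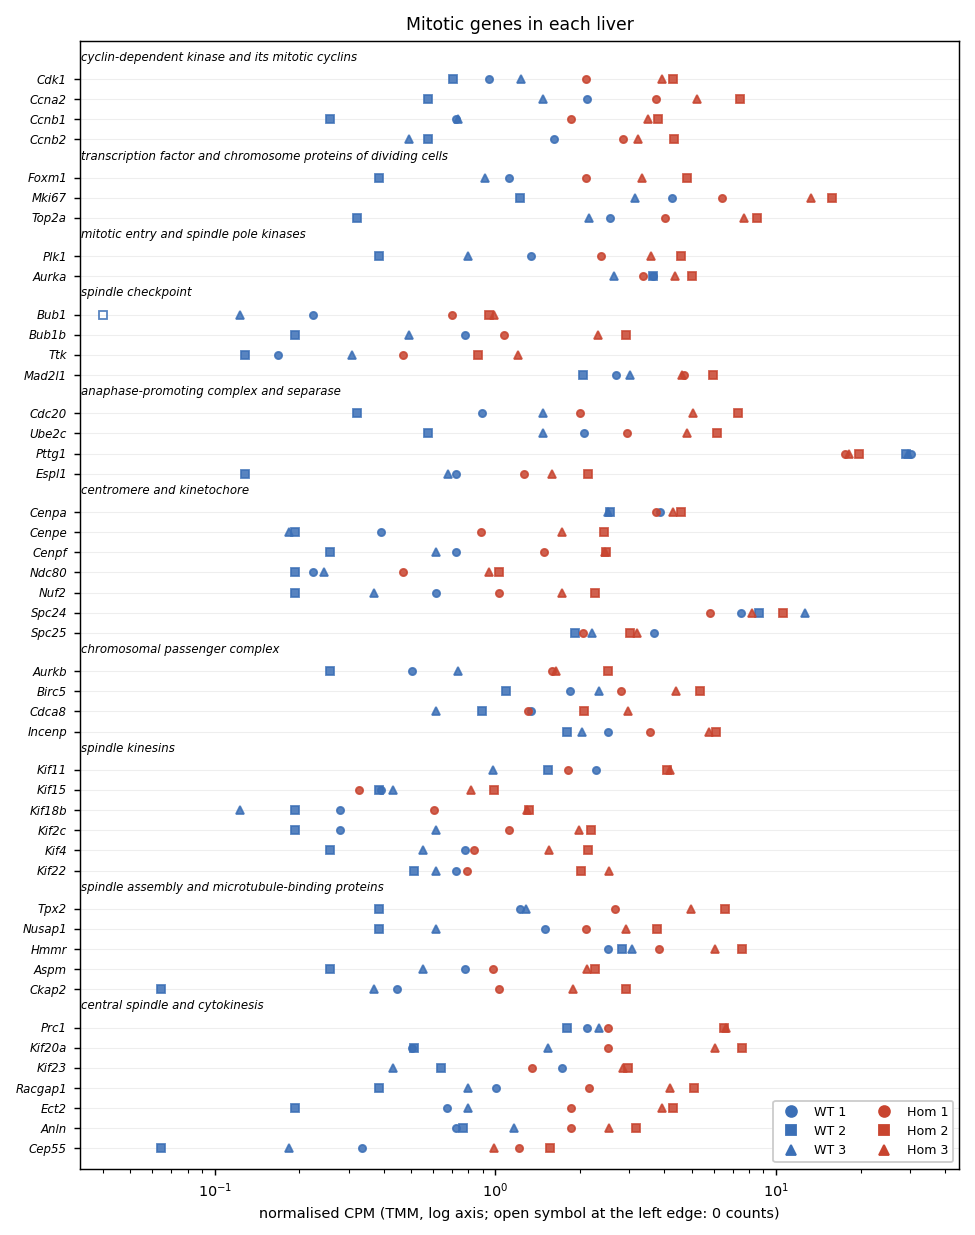
Normalised CPM (log axis) of each of the 46 mitotic genes, by role, in 3 WT livers (blue) and 3 Hom livers (red), with a symbol shape for each replicate number and an open symbol for a count of 0. In 37 genes every red symbol lies to the right of every blue one, and Pttg1, at 28.9 to 30.2 in WT and 17.6 to 19.7 in Hom livers, is the reverse.

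CDK1 and the mitotic cyclins were all higher in Hom livers, 4 of 4 genes. Ccnb1 (NCBI Gene 268697), the cyclin B1 that switches CDK1 on at entry into mitosis, was at 0.726, 0.257 and 0.737 normalised CPM in WT livers 1, 2 and 3 and at 1.87, 3.79 and 3.49 in Hom livers 1, 2 and 3. The groups did not overlap, and the difference was 5.24-fold (log2 fold change, log2FC, of 2.39, standard error, SE, of 0.46, edgeR adjusted p = 0.00708). These levels rest on 4 to 13 counts per WT liver and 40 to 92 per Hom liver. Cdk1 (NCBI Gene 12534), the kinase itself, was at 0.949, 0.706 and 1.23 in WT and at 2.10, 4.29 and 3.92 in Hom livers. It too was separated between the groups, 3.56-fold higher (log2FC 1.83, SE 0.36, edgeR adjusted p = 0.00801). Ccnb2, the second B-type cyclin, was at 1.62, 0.577 and 0.492 in WT and at 2.85, 4.33 and 3.23 in Hom livers, with WT liver 1 standing above the other WT livers (log2FC 1.93, edgeR adjusted p = 0.0161). Ccna2, which encodes cyclin A2 of S and G2 phase, differed by 1.96 on the log2 scale (edgeR adjusted p = 0.0151). Its exons overlap those of Exosc9 on the opposite strand, and whether the counting used strand was not given in the sources used here.

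Genes that mark dividing cells were higher as well, 3 of 3. Foxm1, the transcription factor of the late cell cycle, was at 1.12, 0.385 and 0.922 normalised CPM in WT and 2.10, 4.82 and 3.32 in Hom livers (4.18-fold, log2FC 2.06, SE 0.46, edgeR adjusted p = 0.0123). Mki67, which encodes the Ki-67 protein on the surface of mitotic chromosomes, was at 4.24, 1.22 and 3.13 in WT and 6.44, 15.9 and 13.4 in Hom livers. It was 4.12-fold higher (log2FC 2.04, SE 0.49, edgeR adjusted p = 0.0155), with Hom liver 1 nearer to WT liver 1 than to the other Hom livers. Top2a, the topoisomerase that untangles sister chromatids, was at 2.57, 0.321 and 2.15 in WT and 4.01, 8.57 and 7.67 in Hom livers. WT liver 2 stood far below the other WT livers, and the standard error was the widest of these 3 genes (log2FC 1.99, SE 0.62, edgeR adjusted p = 0.0381).

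Of the spindle pole kinases, Plk1 and Aurka differed in their values. Plk1, which acts at the centrosomes, the kinetochores and the cleavage plane, was at 1.34, 0.385 and 0.799 normalised CPM in WT and 2.38, 4.58 and 3.58 in Hom livers (4.11-fold, log2FC 2.04, SE 0.46, edgeR adjusted p = 0.0124). Aurka, the Aurora A kinase of the spindle poles, was at 3.63, 3.66 and 2.64 in WT and 3.36, 5.03 and 4.35 in Hom livers. Its groups overlapped and it did not pass the test (log2FC 0.36, SE 0.23, edgeR adjusted p = 0.249). With library size alone Aurka was called higher (log2FC 0.82).

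Of the spindle checkpoint, which holds back anaphase until every kinetochore is attached, all 3 tested members were higher. Mad2l1 was at 2.68, 2.05 and 3.01 normalised CPM in WT and 4.71, 5.98 and 4.61 in Hom livers. The 3 Hom livers were close together here, and the difference was 1.97-fold (log2FC 0.98, SE 0.22, edgeR adjusted p = 0.0123). Bub1, the kinase that brings the checkpoint to the kinetochore, had 4, 0 and 2 counts in WT and 15, 23 and 23 in Hom livers. Its log2 fold change was 2.82 (standard error 0.66, edgeR adjusted p = 0.0143), and on so few WT counts it moved to 3.69 without WT liver 1 and 2.29 without WT liver 2. Bub1b, which encodes the MAD3-like protein BUBR1, was at 0.782, 0.192 and 0.492 normalised CPM in WT and 1.07, 2.93 and 2.33 in Hom livers (log2FC 2.08, edgeR adjusted p = 0.0234). Ttk, the MPS1 kinase, was not tested and had 3, 2 and 5 counts in WT and 10, 21 and 28 in Hom livers.

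The genes that trigger anaphase split in direction. The anaphase-promoting complex marks securin and cyclin B for destruction, which frees separase to cut cohesin. Cdc20, its activator, was at 0.894, 0.321 and 1.47 normalised CPM in WT and 2.01, 7.34 and 5.04 in Hom livers (5.31-fold, log2FC 2.41, SE 0.62, edgeR adjusted p = 0.0209). Its exons overlap those of Elovl1 on the opposite strand. Espl1, which encodes separase, was at 0.726, 0.128 and 0.676 in WT and 1.26, 2.14 and 1.59 in Hom livers (log2FC 1.68, edgeR adjusted p = 0.0408). Ube2c, the ubiquitin-conjugating enzyme of the complex, was higher too (log2FC 1.74, edgeR adjusted p = 0.0238), and overlaps Tnnc2 on the other strand.

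Pttg1 (NCBI Gene 30939), which encodes securin, the inhibitor of separase, went the other way. It was at 30.2, 28.9 and 29.6 normalised CPM in WT livers 1, 2 and 3 and at 17.6, 19.7 and 18.2 in Hom livers 1, 2 and 3. The replicates of each group lay close together, and the Hom level was 0.626 of the WT level (log2FC −0.68, SE 0.081, edgeR adjusted p = 0.00132), the smallest adjusted p of the members. It was lower with every liver left out in turn. With library size alone the log2 fold change was −0.22 and Pttg1 was no longer called. Per gene length, Pttg1 was the most abundant member in each of the 6 livers, at a mean of 60.0 TPM (transcript abundance per gene length, scaled to a fixed total per liver and not by TMM) in WT and 58.8 in Hom livers. Spc24 was the next in each liver, at 10.5 and 14.0 TPM, while Ccnb1 was at 0.370 and 3.03.

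Of the 7 centromere and kinetochore genes among the members, 3 were higher, 3 did not pass and 1 was not tested. Cenpe, the kinesin that moves chromosomes to the spindle equator, was at 0.391, 0.192 and 0.184 normalised CPM in WT and 0.887, 2.43 and 1.72 in Hom livers (6.38-fold, log2FC 2.67, SE 0.52, edgeR adjusted p = 0.00761). Cenpf, a large protein of the outer kinetochore, was at 0.726, 0.257 and 0.614 in WT and 1.49, 2.47 and 2.46 in Hom livers (log2FC 1.99, edgeR adjusted p = 0.0101). These WT levels rest on 3 to 13 counts per liver. Nuf2, a subunit of the NDC80 complex that grips microtubules, was also higher (log2FC 2.06, edgeR adjusted p = 0.0152). Its partner Ndc80 was not tested and had 4, 3 and 4 counts in WT and 10, 25 and 22 in Hom livers, without overlap.

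The other subunits of the same complex gave another picture. Spc25 was at 3.69, 1.92 and 2.21 normalised CPM in WT and 2.05, 3.01 and 3.19 in Hom livers, with overlapping groups (log2FC 0.074, SE 0.32, edgeR adjusted p = 0.868). Spc24 was at 7.48, 8.72 and 12.7 in WT and 5.83, 10.6 and 8.19 in Hom livers (log2FC −0.23, SE 0.28, edgeR adjusted p = 0.527). Cenpa, the histone H3 variant of centromeres, was at 3.85, 2.57 and 2.52 in WT and 3.73, 4.58 and 4.31 in Hom livers (log2FC 0.49, edgeR adjusted p = 0.126). Whether the changes of Spc24 and Spc25 differ from that of Nuf2 was not tested.

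In the chromosomal passenger complex, which corrects faulty attachments and later marks the cleavage plane, 3 of 4 genes were higher. Incenp, its scaffold, was at 2.51, 1.80 and 2.03 normalised CPM in WT and 3.55, 6.10 and 5.78 in Hom livers (2.43-fold, log2FC 1.28, SE 0.27, edgeR adjusted p = 0.0102). Aurkb, its kinase, was at 0.503, 0.257 and 0.737 in WT and 1.59, 2.51 and 1.64 in Hom livers (3.79-fold, log2FC 1.92, edgeR adjusted p = 0.0110). Birc5, which encodes survivin, was 2.38-fold higher (edgeR adjusted p = 0.0294). Cdca8, which encodes borealin, was at 1.34, 0.898 and 0.614 in WT and 1.31, 2.06 and 2.97 in Hom livers, with Hom liver 1 inside the WT range (log2FC 1.14, edgeR adjusted p = 0.0647). Its exons overlap a gene on the opposite strand, 9930104L06Rik.

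Of the 6 spindle kinesins among the members, 3 were higher, 2 did not pass and 1 was not tested. Kif18b, which shortens astral microtubules, was at 0.279, 0.192 and 0.123 normalised CPM in WT and 0.607, 1.32 and 1.29 in Hom livers (5.25-fold, log2FC 2.39, SE 0.50, edgeR adjusted p = 0.00946). Kif2c, a depolymerase that releases wrongly attached microtubules, was at 0.279, 0.192 and 0.614 in WT and 1.12, 2.19 and 1.98 in Hom livers (log2FC 2.27, edgeR adjusted p = 0.0106). These are the levels of 2 to 10 counts per WT liver. Kif11, the Eg5 motor that pushes the spindle poles apart, was at 2.29, 1.54 and 0.983 in WT and 1.82, 4.08 and 4.18 in Hom livers, with Hom liver 1 below WT liver 1 (log2FC 1.06, SE 0.43, edgeR adjusted p = 0.0859). Kif22 passed (edgeR adjusted p = 0.0386) and Kif4 did not (edgeR adjusted p = 0.0504), with log2 fold changes of 1.52 and 1.49 whose difference is smaller than either standard error. Kif4 overlaps Pdzd11 on the opposite strand. Kif15, which backs up Kif11, had 7, 6 and 7 counts in WT and 7, 24 and 19 in Hom livers.

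The 5 members that encode spindle-building proteins were all higher in Hom livers. Other spindle genes, with calls in both directions, are given further on. Tpx2, which activates Aurora A and nucleates microtubules near chromosomes, was at 1.23, 0.385 and 1.29 normalised CPM in WT and 2.66, 6.55 and 4.96 in Hom livers (4.83-fold, log2FC 2.27, SE 0.50, edgeR adjusted p = 0.0117). Ckap2, a microtubule-stabilising protein, was at 0.447, 0.0641 and 0.369 in WT and 1.03, 2.93 and 1.90 in Hom livers (log2FC 2.69, SE 0.63, edgeR adjusted p = 0.0143). Both rose from the low levels of 1 to 22 counts per WT liver. Aspm, which focuses the spindle poles, was at 0.782, 0.257 and 0.553 in WT and 0.980, 2.27 and 2.11 in Hom livers (log2FC 1.73, edgeR adjusted p = 0.0289). Nusap1 and Hmmr had log2 fold changes of 1.78 and 1.05 (edgeR adjusted p = 0.0269 and 0.0212), and Nusap1 overlaps the kinetochore gene Oip5 on the opposite strand.

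Of the 7 members of the central spindle and of cytokinesis, 6 were higher, and the median log2 fold change of the 7 was 2.37. Racgap1, the GTPase-activating subunit of centralspindlin, was at 1.01, 0.385 and 0.799 normalised CPM in WT and 2.15, 5.11 and 4.18 in Hom livers (5.16-fold, log2FC 2.37, SE 0.46, edgeR adjusted p = 0.00715). Cep55, which recruits the abscission machinery to the midbody, had 6, 1 and 3 counts in WT and 26, 38 and 23 in Hom livers (log2FC 2.62, SE 0.51, edgeR adjusted p = 0.00723). Here Hom liver 1 was not the lowest Hom liver. Ect2, the exchange factor that switches on RhoA at the cleavage plane, was 5.97-fold higher (edgeR adjusted p = 0.00888). Kif20a, Anln and Prc1 also passed, with log2 fold changes of 2.66, 1.51 and 1.32. Kif20a and Prc1 overlap Cdc23 and Rccd1 on the opposite strand. Kif23, the kinesin of centralspindlin and partner of Racgap1, was at 1.73, 0.641 and 0.430 in WT and 1.35, 2.97 and 2.85 in Hom livers (log2FC 1.34, SE 0.56, edgeR adjusted p = 0.0927). Its groups overlapped through WT liver 1.

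**Figure D3:**
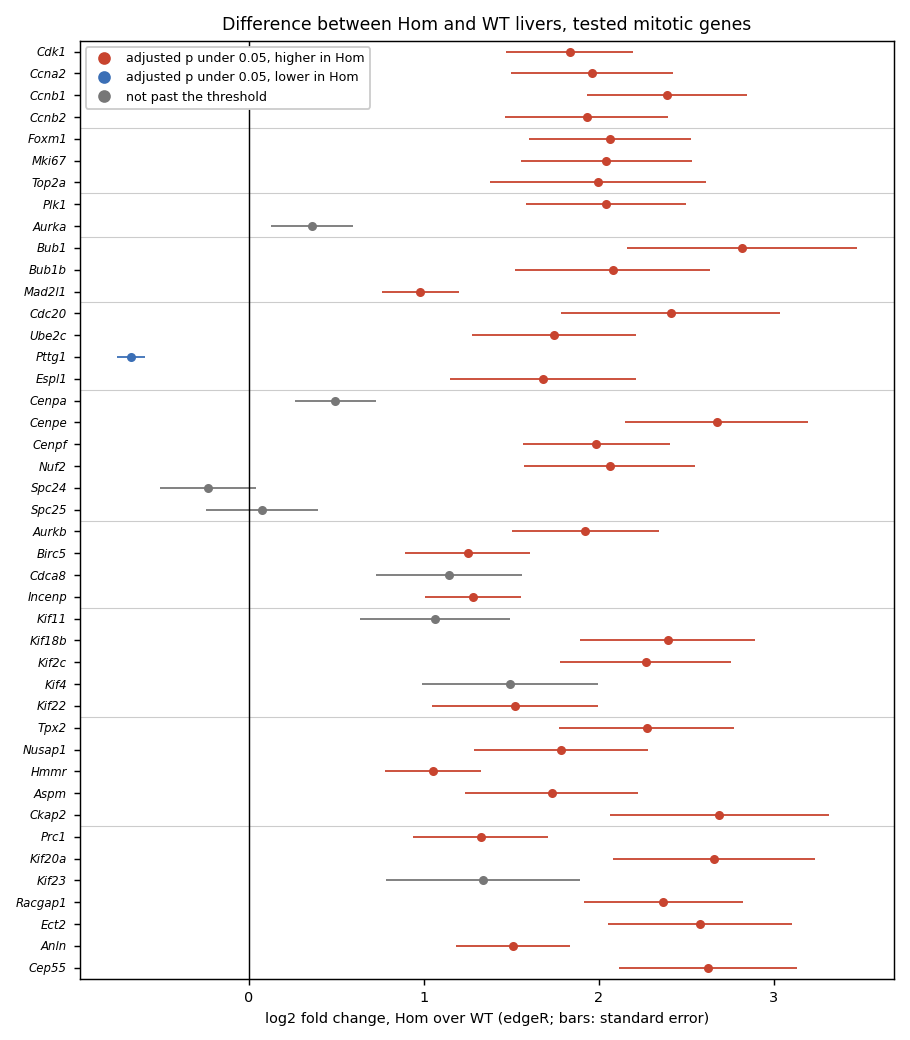
Log2 fold change of Hom over WT livers for the 43 tested mitotic genes in role order, with the standard error as bars (edgeR, 3 livers per group). The 34 genes in red passed an adjusted p of 0.05 upward, Pttg1 in blue (−0.68) passed downward, and Aurka, Cenpa, Spc24, Spc25, Cdca8, Kif11, Kif4 and Kif23 in grey did not pass.

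The Hom livers differed from each other in the same order across most members. Hom liver 1, the liver low in Y-linked counts, was the lowest Hom liver in 44 of 46 genes. In 37 genes the order was Hom liver 2, then 3, then 1. Among WT livers the order was less shared: liver 2 was the lowest in 34 of 46 genes and liver 1 the highest in 28, ties included. The members share their libraries, so these counts describe livers and not independent genes. In the median tested member the highest Hom liver stood 2.04 times over the lowest. In WT livers this ratio was 2.89, over the 42 tested members with a count in every WT liver.

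**Figure D4:**
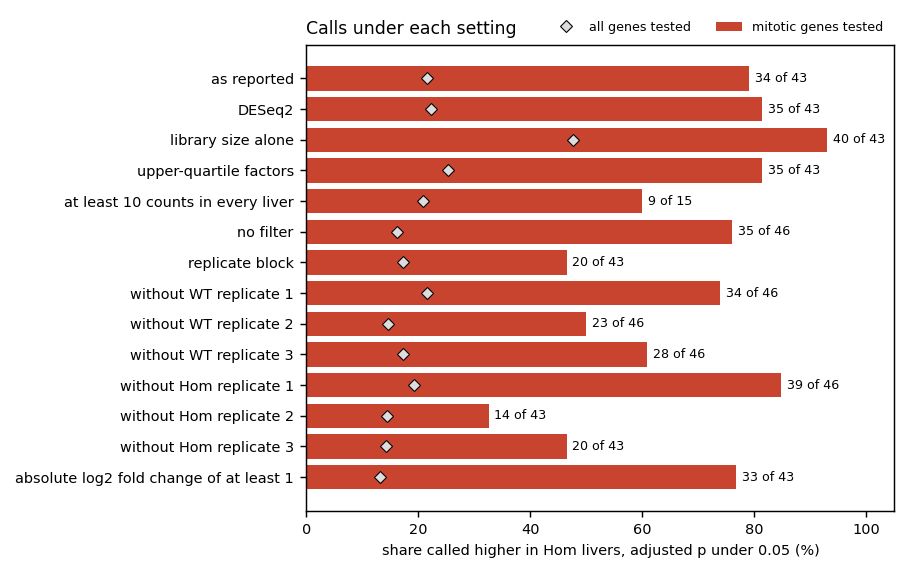
Share of the tested mitotic genes called higher in the Hom group (bars, threshold 0.05 on the adjusted p, with the counts beside them) and of all genes tested in the same fit (diamonds), in percent, for the reported fit and each alternative. The counts run from 9 of 15 (at least 10 counts in every liver) and 14 of 43 (without Hom replicate 2) to 40 of 43 (library size alone), where the diamonds stand at 20.9%, 14.4% and 47.6%.

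Other genes of cell division were examined as lists chosen by function. Of 74 tested mitotic genes outside the 46, 27 (36.5%) were higher and 6 lower, with a median log2 fold change of 0.81. Wee1, the kinase that restrains CDK1, rose from 1.65 ± 0.326 normalised CPM in WT to 10.0 ± 1.99 in Hom livers (SD, n = 3; log2 fold change 2.60, edgeR adjusted p = 5.24e-04). Haus8, a subunit of the augmin complex, was also higher (1.60, edgeR adjusted p = 0.00287). Of the other augmin subunits listed, Haus4 was lower (−0.70, edgeR adjusted p = 0.0389), and Haus1 and Haus6 did not pass. Ccnf, which encodes cyclin F, and Pmf1, of the MIS12 kinetochore complex, were lower (log2FCs −1.43 and −0.74, edgeR adjusted p = 0.00595 and 0.00152). With library size alone Pmf1 was at −0.29 and was not called. Among the kinases related to NEK7, Nek6 was higher by 0.45 on the log2 scale (edgeR adjusted p = 0.0134), a call that was lost without WT liver 2 (0.42). Nek2 (0.85, edgeR adjusted p = 0.0878) and Nek9 (−0.061, edgeR adjusted p = 0.524) did not pass. Nek2 was called higher without WT liver 1 (1.18), without Hom liver 1 (1.09) and with library size alone (1.30), and the sign for Nek9 turned with library size alone and with upper-quartile factors.

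The genes of the G1/S transition and of DNA replication were called higher about as often as genes at large. Of 43 tested, 9 (20.9%) were higher and 3 lower, with a median log2 fold change of 0.20, against 21.5% higher over all genes tested. Ccnd1, which encodes cyclin D1 of early G1, was at 47.9, 20.2 and 39.7 normalised CPM in WT and 145, 106 and 97.4 in Hom livers (log2FC 1.69, edgeR adjusted p = 0.00630). Gins2, a subunit of the replicative helicase, was higher (2.17, edgeR adjusted p = 0.00327), and the replication genes Mcm10 and Tk1 were lower (−3.39 and −1.10, edgeR adjusted p = 0.00427 and 0.00411). Whether the mitotic and replication lists differ from each other was not tested. Of 11 DREAM and MuvB genes, Rbl1 was higher (1.23) and Rbbp4 and Lin37 were lower (−0.76 and −0.59; edgeR adjusted p = 0.00985, 0.00410 and 0.0127). With library size alone Rbbp4 and Lin37 were at −0.30 and −0.13 and were not called. Mybl2 did not pass (log2FC −0.55, edgeR adjusted p = 0.372), on 10 to 25 counts per liver. Of 6 tested cell cycle inhibitors, Cdkn2c, which encodes p18, was higher (1.37, edgeR adjusted p = 0.00299). Cdkn1a, which encodes p21, an inhibitor of cyclin-dependent kinases, was lower: it was at 96.5, 95.8 and 88.2 in WT and 25.1, 21.0 and 26.6 in Hom livers (log2FC −1.95, SE 0.11, edgeR adjusted p = 1.59e-04). Hom liver 1, low in mitotic transcripts, did not stand apart from the other Hom livers in Cdkn1a.

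**Figure D5:**
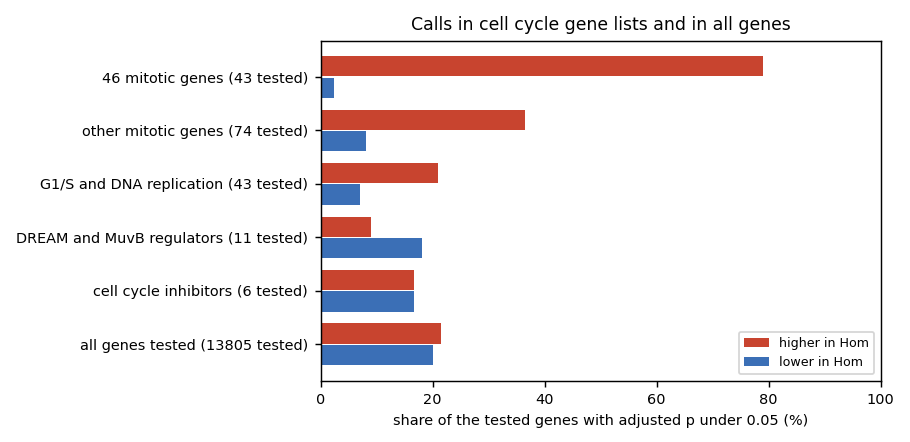
Share of the tested genes of each list that passed the edgeR test upward (red) or downward (blue) in the Hom group. The bar for the 46 mitotic genes reaches 79.1% higher and 2.33% lower, the G1/S and DNA replication list 20.9% and 6.98%, and all 13805 genes tested 21.5% and 20.1%.

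Markers of liver cell types were read against the 21.5% higher and 20.1% lower over all genes tested. Hepatocyte markers were lower in 11 of 15 genes, with summed levels of 154600 to 186700 normalised CPM in WT and 68950 to 90660 in Hom livers. Cholangiocyte markers were higher in 9 of 10 genes (71.3 to 104.9 in WT, 632.4 to 891.5 in Hom livers), and stellate cell and fibroblast markers were higher in 6 and lower in 1 of 10 (340.4 to 400.5 and 724.7 to 800.7). Lymphocyte markers were higher in 3 of 8 tested genes (11.5 to 25.0 and 26.4 to 46.6). Macrophage markers were higher in 2 and lower in 2 of 10 genes, shares near those of all genes (283.1 to 689.6 in WT, 410.1 to 577.4 in Hom livers), endothelial markers higher in 1 and lower in 4 of 10 (270.5 to 362.5 and 235.8 to 245.1) and erythroid markers lower in 2 of 6 tested genes (425.0 to 1054 and 520.4 to 1578). Among Hom livers 1, 2 and 3 the lymphocyte sums (26.4, 46.6 and 41.1) and the macrophage sums (410.1, 577.4 and 496.0) were lowest in liver 1 and highest in liver 2, as the mitotic sum was. The hepatocyte sums (90660, 68950 and 80270) and the endothelial sums (245.1, 235.8 and 239.9) ran the opposite way, and the cholangiocyte and stellate sums were highest in liver 3. Among WT livers the lymphocyte and stellate sums were highest in liver 1 and lowest in liver 2, as the mitotic sum was. The macrophage sums (689.6, 307.1 and 283.1 in WT livers 1, 2 and 3) did not follow that order. Neither did the hepatocyte, cholangiocyte, endothelial and erythroid sums. The lymphocyte sums thus ran in the order of the mitotic sums within both groups. No marker in these lists was at 0 in every liver. The part of these cell types in the level of mitotic transcripts was not tested.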

How the data were processed

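Liver RNA of 3 WT and 3 Hom mice was extracted with Trizol and sequenced on DNBSEQ. The authors deposited 1 table of 17975 genes with estimated counts, FPKM and TPM values for each liver. The submitters' processing notes name HISAT2 2.0.4, Bowtie2 2.2.5, RSEM 1.2.12 and the mm9 build. Annotation and strandedness were not given in the sources used here. The authors' estimated counts are not scaled between livers, 65.9% are whole, and they were rounded here. The authors' TPM values were used only to compare levels between genes, and the deposited FPKM values were not used. The deposited mean columns carry crossed group names and were left out. Nothing states whether same-group mice share a litter.

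Genes were filtered with filterByExpr (13805 kept), scaled with TMM factors (0.81 to 1.23) and tested with edgeR 4.0.16 (glmQLFit and glmQLFTest, R 4.3.3), with Benjamini-Hochberg adjustment over all tested genes and a threshold of 0.05. Standard errors come from the log2 fold change and F statistic. On simulated counts for 13210 genes, 72.7% of 187 genes changed by 1 on the log2 scale were recovered. The simulation gave every gene the same dispersion, so this share is not a recovery rate for the members, most of which had few counts. The members and lists were chosen with earlier results of these data known. Given in every liver were, in each role group, the 2 tested members with the smallest adjusted p (1 in groups under 4) and the one with the largest, and always Cdk1, Ccnb1, Foxm1, Mki67, Top2a and Aurka. Values in every liver of Spc24 and Cenpa were added after they were seen. In each pathway list the 2 called genes with the smallest adjusted p in each direction were named, and always Nek2, Nek6, Nek9, Cdkn1a and Ccnd1. Alternatives were DESeq2 1.42.0, other scalings and filters, a replicate block, each liver left out and a minimum log2 fold change of 1. Overlapping exons were read from GENCODE M21 on GRCm38, for names only. The planned search for degradation motifs in proteins was not run.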

Additional observations from a re-analysis of the deposited data

How the results depend on the processing

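The number of members higher (34, beside 21.5% of all genes) was 35 with DESeq2 (22.3% of all genes), 35 with upper-quartile factors (25.2%), 40 with library size alone (47.6%), 35 without a filter (16.1%) and 33 with a minimum size of 1 on the log2 scale (13.2%); it was 9 of 15 with at least 10 counts in every liver (20.9%), a filter that leaves fewer genes. Leaving out 1 liver at a time gave 14 to 39 higher, 1 lower in each case, a median of 1.61 to 2.13 and a Nek7 log2 fold change of −2.07 to −1.91. The number lower (1, Pttg1) was 0 with library size alone and 0 with that minimum size. The median of 1.92 was 2.37 with library size alone and 1.11 with at least 10 counts in every liver. The share of all called genes that were higher was 51.7%, against 91.1% with library size alone and 62.8% with upper-quartile factors. Same-numbered livers did not deviate together (correlations of −0.11, −0.056 and −0.049 over 13805 genes). Of 6 livers, 0 correlated best with the liver of their own number. With so few livers per group, this check cannot exclude that the numbers pair mice. With the replicate block 20 members were higher (17.3% of all genes), all among the 34, and 1 lower. Nek9 turned to 0.40 with library size alone and 0.030 with upper-quartile factors, and Spc25 (−0.11 to 0.41 with 1 liver left out) to −0.11, −0.039 and −0.042 without WT replicate 2, WT replicate 3 and Hom replicate 3; neither was called in the reported fit, and the cause was not tested. Few counts limit most members, at a median of 14.3 per WT liver.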

Other observations

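Per gene length, Pttg1, Spc24 and Cenpa were the 3 most abundant members in WT livers 1, 2 and 3, while in Hom livers 2 and 3 Ube2c took the third place.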
